A study of Mus musculus with 8 samples.

Results

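The genes described are 10 that act when myoblasts fuse into myotubes or when the muscle cell membrane is resealed. They were taken by name from all non-control probes of the array: Tmem8c (current symbol Mymk), Gm7325 (Mymx), Adam12, Ncam1, Jam3, Dock1, Cav3, Dysf, Myof and Trim72. They had 14 of the 55681 probes, of which 13 were kept because every array of a group (or of both) read them well above background, so that all 10 genes were among the 13824 tested. The third Adam12 probe stayed too close to background on all 8 arrays and was not tested. The cells were C2C12, a mouse myoblast line, on day 4 of differentiation into myotubes. They had been transfected with a control siRNA (4 samples) or with an siRNA against macroH2A1.1 (4 samples), one of the splice products of the histone variant gene Macroh2a1. A characteristic calls the second group a knockout, but its titles and the design speak of siRNA, and the latter is used here. RNA of each sample was hybridised singly to a 1-colour array. Both groups share the cell line, the day and the differentiation, and all RNA was labelled with Cy3. No readout of fusion itself, such as the share of nuclei in fused cells, was among the files used here.

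Fusion in vertebrate muscle needs Mymk (myomaker), which brings the outer membrane leaflets of neighbouring cells together, and Mymx (myomixer, also minion), a micropeptide that opens the fusion pore. Before that step the cells recognise each other through surface proteins such as Adam12, Ncam1 and Jam3, and Dock1 passes the signal to the actin cytoskeleton by activating Rac. Membrane repair in the finished fibre uses the calcium-binding ferlin Dysf, the tripartite-motif protein Trim72 (MG53) and the muscle caveolin Cav3, and the related ferlin Myof also takes part in fusion.

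2 probe sequences are shown, for Myof and Ncam1, and those of the other Ncam1 probes described below are not. The Myof probe is the only one for that gene, and the Ncam1 probe is the one listed for all 3 RefSeq forms of Ncam1 that the files name. No letters are capitalised. The Myof probe lies on the minus strand at chr19:38024061-38024120 (mm9) and the Ncam1 probe on the minus strand at chr9:49351182-49351241 (mm9).
Myof: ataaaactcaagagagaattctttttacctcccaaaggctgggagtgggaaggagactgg
Ncam1: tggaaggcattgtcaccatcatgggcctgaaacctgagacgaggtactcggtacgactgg

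Values are log2 processed intensity relative to each array's 75th percentile, and a difference is macroH2A1.1 siRNA minus control siRNA. The number of arrays limits the precision. Macroh2a1, the targeted gene, was lower in all 4 siRNA samples by -0.98 (SE 0.10, limma adjusted p = 0.043), at 0.506 times the control level. That call held in 8 of 18 other unpaired settings (adjusted p up to 0.265) and in 7 of 11 paired ones, with differences between -1.17 and -0.89. Macroh2a1 was read by its brightest kept probe, and whether that probe detects macroH2A1.1 alone was not tested. All 12 myotube markers were well above background. Of 7 proliferating myoblast markers 5 passed that filter, and Pax7 and Myf5 did not. Sample 2 of macroH2A1.1 siRNA lay far from the rest on the leading principal component (60.3, where the other samples ran from -27.5 to 7.98). Without pairing 0 members passed either with or without that sample, so the count cannot show its influence. Samples of the same replicate number deviated together from their group means, so a second fit that blocks on the number ("with pairing") stands beside the first. Without pairing 3 of 13824 genes passed an adjusted p of 0.05 (0.0217%), and 0 of the 10 members did (1 member, Myof, and 1676 genes, or 12.1%, had an unadjusted p under 0.05 in limma). With pairing 1100 genes passed (7.96%), and 1 member, Cav3, did (4 members and 3838 genes, or 27.8%, had an unadjusted p under 0.05 in limma). That paired background was 0 genes when pair 1 or pair 3 was left out, 115 without pair 2, 587 without pair 4, and 0 when dim probes were kept. The members' median difference was 0.11, against 0.00 (0.0044) over all genes tested.

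The genes of the pair of fusion proteins did not pass the test, with or without pairing. For Mymk, whose probe is at 26917594 to 26917653 of chromosome 2 (mm9, minus strand), control samples 1 to 4 read 5.62, 5.52, 5.83 and 5.64. The macroH2A1.1 siRNA samples read 5.93, 5.46, 5.80 and 5.98, so the groups overlapped, with the siRNA sample higher in 2 pairs and lower in 2. The difference was 0.14 (SE 0.13), a fold of 1.101 with a 95% interval from 0.894 to 1.36 without pairing and from 0.935 to 1.30 with it. Its limma adjusted p was 0.757 unpaired and 0.39 paired. The unpaired difference was 0.25 without siRNA sample 2 and 0.077 without siRNA sample 4, and the paired one was 0.083 without pair 1 and 0.072 without pair 4.

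Mymx, whose probe is at 45737921 to 45737980 of chromosome 17 (mm9, minus strand), was the steadiest member among the controls. These read 7.14, 7.20, 7.22 and 7.20 (SD 0.031, n = 4), and the macroH2A1.1 siRNA samples read 7.14, 6.79, 6.90 and 7.08 (SD 0.16, n = 4). Every siRNA sample lay under every control, with within-pair differences of -0.00947, -0.41, -0.32 and -0.12, so that pair 1 was separated by under 0.01. Groups that did not overlap with the siRNA side lower made up 3.54% of all genes. The difference was -0.21 (SE 0.10, limma adjusted p = 0.423), a fold of 0.862 with an interval from 0.740 to 1.004. With pairing the adjusted p was 0.18 (SE 0.086), and it lay between 0.0503 and 0.394 in the other paired settings. Without siRNA sample 2 the difference was -0.15 (limma adjusted p = 0.547).

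**Figure D1:**
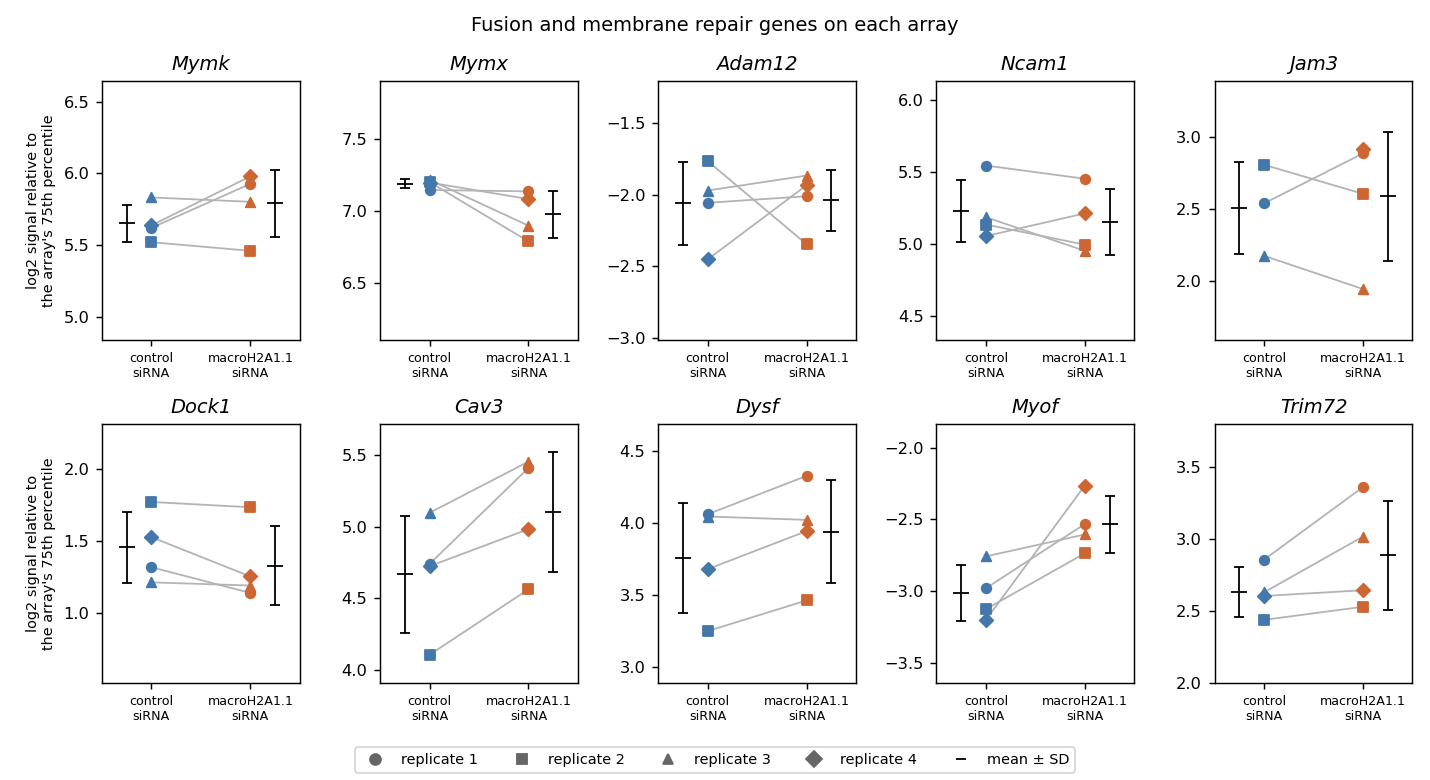
Signal of the 10 genes on each array (vertical axis, log2 relative to the array's 75th percentile, all panels spanning the same range). Grey lines join samples of the same replicate number, blue is control siRNA and orange macroH2A1.1 siRNA, and black bars give mean ± SD (n = 4, and 3 for Jam3 in controls). All 4 lines slope up for Cav3, Myof and Trim72 and all 4 slope down for Mymx and Dock1.

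The genes whose scaled profile over the 8 arrays lay nearest to that of Mymk were Rc3h2 (Euclidean distance 0.590), Tmem120b (0.669) and 1110059G10Rik (0.795), among 13770 genes with a value on every array. For Mymx they were Anks3 (0.569), Fmn2 (0.591) and Krtap9-1 (0.724). These distances describe 8 arrays from 4 replicate numbers and 2 groups.

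None of the surface and signalling members passed the test. The brighter tested probe of Adam12, a transmembrane metalloprotease of fusing myoblasts, is listed on chromosome 7 from 141079625 to 141081861 (mm9, minus strand), a span of 2237 bases. The control samples of Adam12 read -2.06, -1.77, -1.97 and -2.45, and the macroH2A1.1 siRNA samples read -2.01, -2.35, -1.87 and -1.93. The groups overlapped, and the difference was 0.02 (SE 0.17, limma adjusted p = 0.983), with an interval from -0.36 to 0.40. Its other tested probe, at 141075827 to 141075886, differed by -0.14 (SE 0.24, limma adjusted p = 0.933 over 24988 probes).

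Jam3, an adhesion molecule of the immunoglobulin family, read 2.54, 2.81 and 2.18 in control samples 1 to 3. Control sample 4 was flagged as an outlier spot and is missing. The macroH2A1.1 siRNA samples of Jam3 read 2.89, 2.61, 1.94 and 2.92, which covers the whole control range. The difference over these 7 arrays was 0.08 (SE 0.27, limma adjusted p = 0.95), and over the 3 complete pairs -0.03 (SE 0.14, adjusted p = 0.917), so its sign depended on which arrays entered. With the authors' series values, which have all 8 arrays, the Jam3 difference was 0.34 (0.335; adjusted p = 0.737 unpaired and 0.435 paired, limma). Its probe is at 26905298 to 26905357 of chromosome 9 (mm9, minus strand).

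Dock1, the exchange factor for Rac, read 1.32, 1.77, 1.21 and 1.53 in controls and 1.14, 1.73, 1.19 and 1.25 with macroH2A1.1 siRNA (chromosome 7, plus strand, 142365246 to 142365305, mm9). Sample 2 was the highest of both groups, and the siRNA sample of Dock1 was lower in all 4 pairs, with differences of -0.18, -0.04, -0.02 and -0.27. The mean difference was -0.13 (SE 0.17, limma adjusted p = 0.854 unpaired, and SE 0.069 with adjusted p = 0.291 paired). Without pairing, the Dock1 difference was -0.023 without control sample 2 and -0.064 without siRNA sample 1, and -0.082 without siRNA sample 3. It was -0.21 without control sample 3 and -0.26 without siRNA sample 2, and with pairing it was -0.079 without pair 4. Being lower in all 4 pairs, as Mymx and Dock1 were, held for 17.6% of all genes.

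**Figure D2:**
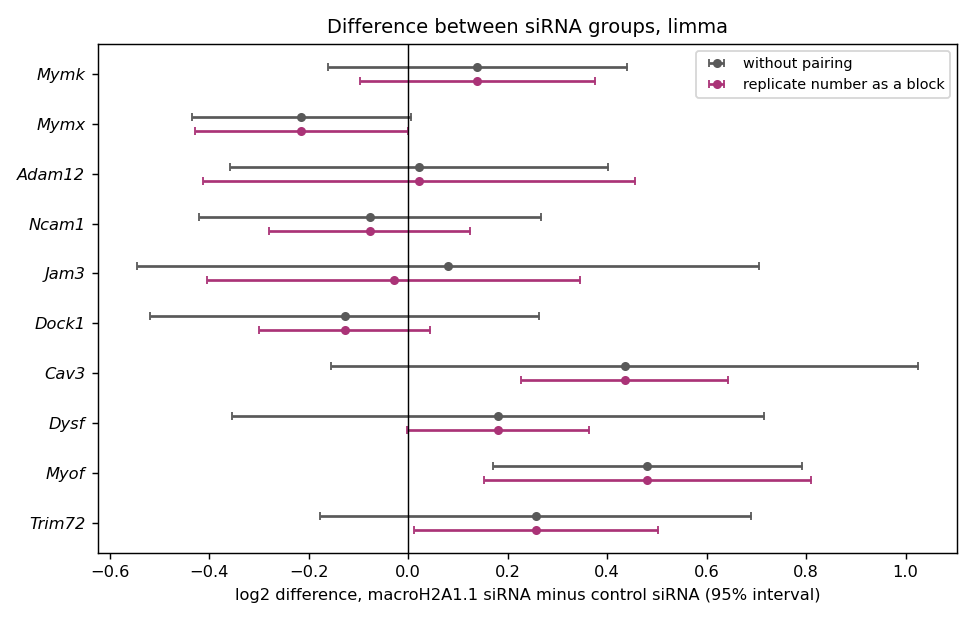
Log2 difference between groups (horizontal axis, macroH2A1.1 siRNA minus control siRNA) for each member, with 95% intervals from limma without pairing (grey) and with pairing by replicate number (purple). The paired interval of Cav3 runs from 0.23 to 0.64, while its interval without pairing runs from -0.16 to 1.03 and crosses 0.

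Ncam1, a homophilic adhesion molecule of myoblasts and of the nervous system, has 3 probes on the minus strand of chromosome 9, whose differences were -0.15, -0.08 and -0.46, and none of which passed the test. The Ncam1 probe printed above, at 49351182 to 49351241 (mm9) and listed for all 3 RefSeq forms, read 4.95, 3.97, 4.66 and 4.44 in controls. With macroH2A1.1 siRNA this probe read 4.68, 3.90, 4.35 and 4.50, a difference of -0.15 (SE 0.23, limma adjusted p = 0.921). The brightest probe, at 49310320 to 49310379, is listed for 2 forms other than variant 2 and stands for Ncam1 among the 13824 genes.

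That brightest Ncam1 probe read 5.55, 5.14, 5.19 and 5.05 in controls and 5.45, 4.996, 4.95 and 5.21 with macroH2A1.1 siRNA. Its difference was -0.08 (SE 0.15), and limma adjusted p = 0.915 unpaired and 0.578 paired. The probe at 49323381 to 49323440 is listed for transcript variant 2 alone. It read 5.07, 4.32, 4.75 and 4.42 in controls and 4.65, 3.70, 4.10 and 4.27 with macroH2A1.1 siRNA, lower in all 4 pairs with overlapping groups. Its difference was -0.46 (paired SE 0.10), and limma adjusted p = 0.555 unpaired and 0.073 paired. The Ncam1 gene value ran from -0.18 without siRNA sample 1 to 0.028 without control sample 1. With pairing 3.14% of 24988 probes passed, and 0 of the 13 tested member probes did.

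Within each array, the log2 signal of the variant 2 probe of Ncam1 minus that of the brightest probe read -0.48, -0.82, -0.44 and -0.63 in controls. With macroH2A1.1 siRNA it read -0.81, -1.29, -0.85 and -0.95. All 4 pairs were lower, at -0.33, -0.47, -0.42 and -0.31, although control 2 lay just under siRNA sample 1. This comparison was chosen after the values were seen. The mean change was -0.38, and a two-sided exact permutation test gave p = 0.0571 when pairing was not used and 0.125 when it was, the smallest value that 4 pairs allow. Against the probe of all 3 forms the change was -0.31 (two-sided exact permutation p = 0.0286 ignoring pairs, 0.125 respecting them), and these were the 2 comparisons made. The comparisons were chosen from these same values, and 4 pairs cannot give a paired exact permutation p under 0.125. These tests therefore cannot decide whether the probes changed unequally.

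**Figure D3:**
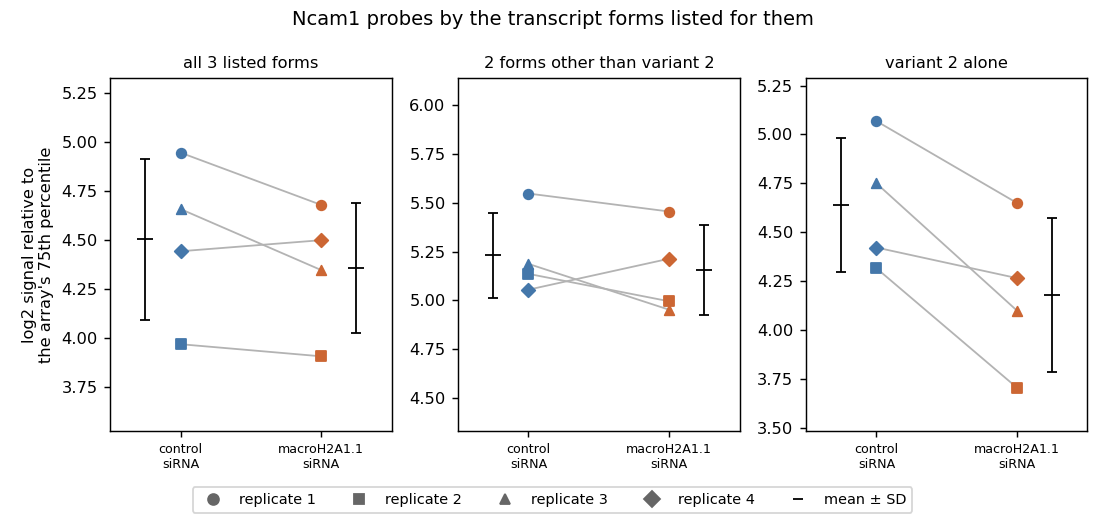
Signal of the 3 Ncam1 probes on each array (vertical axis, log2 relative to the array's 75th percentile, panels spanning the same range), by the transcript forms listed for each probe. Lines join samples of the same replicate number and black bars give mean ± SD (n = 4). The variant 2 probe is lower with macroH2A1.1 siRNA in all 4 pairs, and the other probes in 3 of 4.

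The repair and caveola members read higher on average with macroH2A1.1 siRNA, and 1 of the 4 passed with pairing. Cav3, the caveolin of muscle, read 4.74, 4.11, 5.10 and 4.72 in controls and 5.41, 4.56, 5.45 and 4.98 with macroH2A1.1 siRNA (chromosome 6, plus strand, 112422739 to 112422798, mm9). The groups overlapped, with control sample 3 (5.10) above siRNA sample 4 (4.98), and sample 2 was the lowest of each group. The siRNA sample was higher in every pair, by 0.669, 0.456, 0.357 and 0.258. The difference was 0.44, a fold of 1.35 with an interval from 1.17 to 1.56 with pairing (SE 0.083, limma adjusted p = 0.041) and from 0.898 to 2.04 without it (SE 0.26, adjusted p = 0.572). Among all genes 4.20% passed with pairing and were higher, and 1 of 10 members does not stand apart from that background.

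The Cav3 call did not hold when any 1 of the pairs was left out (adjusted p = 0.130, 0.121, 0.125 and 0.0575 without pairs 1 to 4), nor when each probe was tested alone (0.0619), arrays were centred on the median (0.0514) or dim probes were kept (0.146). Without macroH2A1.1 siRNA sample 2 and without pairing the difference was 0.61, and without control sample 2 it was 0.25.

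Trim72, which gathers vesicles at a membrane wound, read 2.86, 2.44, 2.63 and 2.60 in controls and 3.36, 2.53, 3.02 and 2.64 with macroH2A1.1 siRNA (chromosome 7, plus strand, 135154841 to 135154900, mm9). It was higher in all 4 pairs, by 0.506, 0.0911, 0.389 and 0.0399, with overlapping groups. Its difference of 0.26 (SE 0.19, limma adjusted p = 0.677) had SE 0.098 and adjusted p = 0.166 with pairing. Without 1 array the unpaired difference of Trim72 ran from 0.098, without siRNA sample 1, to 0.38, without siRNA sample 2.

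Dysf, the dysferlin of repair, read 4.06, 3.25, 4.04 and 3.68 in controls and 4.33, 3.46, 4.02 and 3.94 with macroH2A1.1 siRNA (chromosome 6, plus strand, 84160977 to 84161036, mm9). Sample 2 was the lowest of each group, and pair 3 did not share the direction, at -0.02 against 0.27, 0.21 and 0.27. The difference of 0.18 had SE 0.23 and limma adjusted p = 0.847 unpaired, and SE 0.073 and adjusted p = 0.183 paired. Single arrays moved the unpaired difference of Dysf widely, to 0.010 without control sample 2 and 0.051 without siRNA sample 1. It was 0.28 without control sample 1 or 3 and 0.34 without siRNA sample 2.

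Myof, the ferlin of myoblasts, was dim and read -2.98, -3.12, -2.76 and -3.20 in controls and -2.53, -2.74, -2.60 and -2.26 with macroH2A1.1 siRNA. Every siRNA sample lay above every control, by 0.153 to 0.936 within pairs. Groups that did not overlap with the siRNA side higher made up 4.39% of genes. The difference was the largest among the members in this setting, at 0.48 (SE 0.14), a fold of 1.40 with an interval from 1.13 to 1.73, and limma adjusted p = 0.229 unpaired and 0.083 paired. With normexp background correction it read 0.26 (limma adjusted p = 0.221, and 0.039 with pairing), and with the authors' series values 0.17 (0.359 and 0.119). The size of this dim gene's difference thus moved with the processing, and the cause was not tested. Cav3, Trim72 and Myof were the members higher in all 4 pairs, a pattern of 20.0% of all genes.

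Sample 2 had the lowest Mymk, Cav3, Dysf and Trim72 signal of its group, in both groups, and the highest Dock1. The summed level of the 12 myotube markers was also lowest in sample 2 of both groups. It ran from 1456 to 2085 times the 75th percentile in controls and from 1836 to 2901 with macroH2A1.1 siRNA, higher in each pair by a ratio of 1.39, 1.26, 1.27 and 1.24, and 7 of the 12 rose with pairing (4.20% of all genes did), while 0 passed without it. The 5 proliferation genes measured of 7 were highest in sample 2 of both groups, at sums of 4.38 to 21.2 in controls and 4.17 to 24.4 with macroH2A1.1 siRNA, and 0 of them passed with pairing. The 7 fibroblast markers summed to 945 to 1220 in controls and 838 to 1180 with macroH2A1.1 siRNA, lower in each pair at ratios of 0.853, 0.739, 0.967 and 0.940, and 2 of them fell with pairing (3.75% of all genes did). Of other lists, 1 of 5 adipocyte, 5 of 6 macrophage and 2 of 4 endothelial markers were measured, and Adipoq, Plin1, Cidec, Lep, Ptprc, Cdh5 and Tek were not well above background. The macrophage sums were 21.7 to 24.5 and 19.3 to 25.8 and the endothelial sums 8.77 to 12.8 and 7.75 to 10.6, in controls and with macroH2A1.1 siRNA. The 1 adipocyte marker measured, Fabp4, read 0.0271 to 0.149 and 0.0930 to 0.466, at ratios of 2.68, 1.53, 3.63 and 3.44 within pairs, and rose with pairing. Fabp4 was dim, and a probe was kept if either group alone read it well above background. The size of its ratios is therefore uncertain. The 3 Schwann cell and neural markers measured summed to 0.270 to 0.473 and 0.377 to 0.553, at ratios of 1.17, 1.48, 1.097 and 1.54, and 1 of them rose with pairing. All of these lists had 0 genes passing without pairing. Fewer cells of a type and less RNA per cell cannot be told apart in these bulk samples, and the part of these markers in the members' differences was not tested.

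RefSeq promoter windows (GRCm38.p6, 250 bases before to 50 after a start) were matched for 5 members, with 6 windows. They were searched for the E-box CANNTG, the core that myogenic factors such as MyoD bind, which reads the same on both strands and contains CAGCTG as one of its forms. Of 32851 windows of all genes, 72.3% held at least 1 E-box and 16.3% held CAGCTG. The Cav3 window held 2, starting 174 and 106 bases before the start, and 39.6% of windows held 2 or more. The Trim72 window held 3, starting 239, 102 and 31 bases before the start, and 17.6% held 3 or more. These are the members' windows that held 2 or more E-boxes, and they are shown for that reason, with E-boxes in capitals. Myof, also higher in all 4 pairs, had none in its window. The Cav3 window is chr6:112459255-112459554 on the plus strand, and its second E-box is a CAGCTG. The Trim72 window is chr7:128004128-128004427 on the plus strand. The Dock1 window held 1 E-box, and the windows of Dysf 0 and 1.
Cav3: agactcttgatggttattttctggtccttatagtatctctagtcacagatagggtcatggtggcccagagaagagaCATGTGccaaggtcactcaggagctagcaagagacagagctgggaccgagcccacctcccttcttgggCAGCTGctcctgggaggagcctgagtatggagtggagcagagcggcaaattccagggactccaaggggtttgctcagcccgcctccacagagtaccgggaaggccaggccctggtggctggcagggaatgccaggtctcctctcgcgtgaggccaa
Trim72: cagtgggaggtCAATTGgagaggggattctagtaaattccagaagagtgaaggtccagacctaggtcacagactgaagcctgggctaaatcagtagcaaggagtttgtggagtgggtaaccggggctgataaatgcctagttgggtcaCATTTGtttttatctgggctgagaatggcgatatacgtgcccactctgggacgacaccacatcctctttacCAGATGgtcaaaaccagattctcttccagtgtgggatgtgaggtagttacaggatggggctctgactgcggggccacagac

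Other genes of the same processes moved in both directions with pairing. Of 76 genes in 4 lists, 68 were tested, and 5 rose and 7 fell, together 17.6% against 7.96% of all genes, and 0 passed without pairing. An unadjusted p under 0.05 in limma was found for 6 of the 68 without pairing, where 12.1% of all genes had it. With pairing it was found for 26, where 27.8% of all genes had it. Genes higher with pairing made up 4.20% and genes lower 3.75% of all genes. The median difference of the 68 was -0.02 (-0.0156). All 12 kept their direction in the other paired settings. However, 0 of them passed without pair 1, 2 or 3 or when dim probes were kept, and 3 did without pair 4.

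Adhesion and recognition genes held most of these calls, with 4 rising and 3 falling of 20 tested (median -0.10). Itga4, the integrin chain that pairs with Vcam1 between myoblasts, rose by 0.74 (paired SE 0.087, limma adjusted p = 0.017), and the M-cadherin gene Cdh15 rose by 0.39 (adjusted p = 0.029). Itga7, the laminin-binding integrin chain of muscle, rose by 0.35 (adjusted p = 0.032), and the netrin receptor Neo1 rose by 0.35 (adjusted p = 0.043). The surface receptor Cdon, which promotes myogenic differentiation, fell by 0.42 (paired SE 0.056, limma adjusted p = 0.022). Itgav, an integrin chain, fell by 0.41 (adjusted p = 0.034), and Kirrel, a relative of the nephrin-type fusion receptors of the fly, fell by 0.30 (adjusted p = 0.039). The groups of Cdon, Itgav and Kirrel did not overlap, with the siRNA side lower, as in 3.54% of all genes. Neither did those of Boc, the partner of Cdon, which read -0.34 (adjusted p = 0.092 with pairing) and was picked out after its values were seen. Vcam1 read -0.58 (adjusted p = 0.0573 with pairing).

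Without pairing the limma adjusted p of these adhesion genes ran higher, at 0.614 for Itga4, 0.71 for Cdh15, 0.155 for Cdon and 0.124 for Itgav. Without control sample 3 and without pairing, Itga4 read 0.34 and Cdh15 0.14, since that sample was the lowest control for both. Cdh15 read 0.65 without siRNA sample 3, Neo1 0.23 without siRNA sample 2 and Vcam1 -0.35 without siRNA sample 1.

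In fusion signalling and actin remodelling 0 rose and 1 fell of 19 tested (median -0.01, 23 on the list). Dock5, a relative of Dock1 that also acts in fusion, fell by 0.34 (paired SE 0.064, limma adjusted p = 0.040). The transcription factor gene Nfatc2 read -0.62 (adjusted p = 0.096 with pairing), but -0.23 with normexp and -0.32 with the series values, and -0.34 without control sample 2 and -0.997 without control sample 1. Among other membrane repair genes 0 rose and 1 fell of 19 tested (median 0.03, 23 on the list). Anxa5, a calcium-dependent phospholipid binder, fell by 0.40 (paired SE 0.075, adjusted p = 0.041; -0.24 unpaired without control sample 2). S100a11 read 0.29 (adjusted p = 0.292 with pairing), and -0.0084 unpaired without control sample 1.

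Of 10 caveola and T-tubule genes, 1 rose and 2 fell (median 0.06). Cav2 fell by 0.65 (paired SE 0.099, limma adjusted p = 0.027) and Cav1 fell by 0.47 (adjusted p = 0.0498), both being caveolins of a wider range of cell types than Cav3. Without pairing, Cav1 read -0.22 (-0.225) without siRNA sample 1 and -0.25 without control sample 2, and Cav2 read -0.39 (-0.385) without siRNA sample 1. Bin1, which shapes T-tubules, rose by 0.28 (adjusted p = 0.048). Pacsin2 read 0.26 (limma adjusted p = 0.056 with pairing) and was also picked out after its values were seen. Its groups did not overlap, with the siRNA side higher, as in 4.39% of all genes. Median centring of the arrays left the paired calls of 4 of the 12 list genes, and 12 kept their direction.

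**Figure D4:**
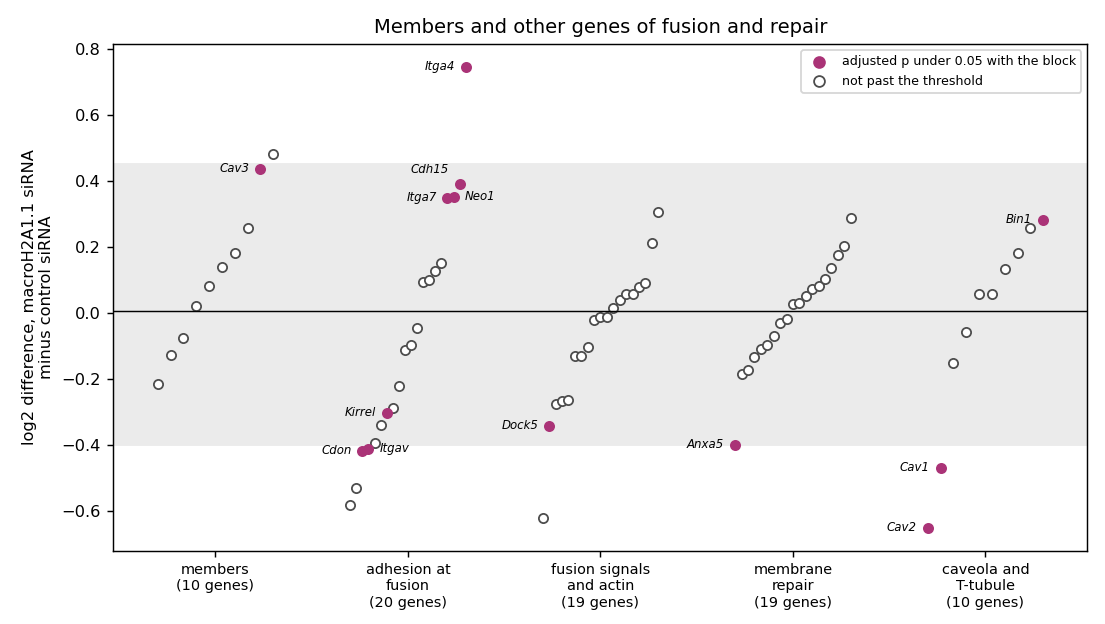
Log2 difference between groups (vertical axis) for the members and the tested genes of the 4 lists, each sorted by its value. Filled points passed limma with the replicate block at an adjusted p of 0.05, the line is the median of all 13824 genes (0.00) and the grey band holds the middle 90% of them (-0.40 to 0.45). Cav3 is the filled member, and Itga4 is the highest and Cav2 the lowest filled point.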

How the data were processed

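The authors extracted spot intensity with Agilent Feature Extraction 10.7.3.1 against mm9, per the file headers, and that software subtracted the background from the processed intensity. The deposited series values are log2 by their size (no scale is stated). Each of their columns correlates with its own array (r from 0.9977 to 0.9996), all columns have median 6.29, their background handling and centring step are unknown, and they served as an alternative. Here the processed intensity was taken to log2 relative to the array's 75th percentile. Control spots were dropped, outlier spots set missing and spots of a probe averaged. A probe stayed if either group read it well above background on all its arrays (24988 did), and the stayed probe of highest mean stood for its gene. RefSeq (GRCm38.p6) or the file named 33277 of 55681 probes. Between 46.9% and 49.8% of spots per array were well above background, and 0 were saturated.

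The test was limma 3.58.1 (R 4.3.3; lmFit and eBayes, two-sided), unpaired, with Benjamini-Hochberg adjustment across all genes and a threshold of 0.05, tested on simulated data. Intervals are 95%. Same-numbered samples correlated in their deviations from the group mean at 0.61, 0.55, 0.66 and 0.41, above 0.1 in every pair, so the numbers were taken as pairs. These arrays are also neighbours on the only slide, so place and culture cannot be told apart. Every control array lay in column 1 or 3 of the slide and every macroH2A1.1 siRNA array in column 2 or 4. Each column therefore held a single group. Replicates are labelled biological with no account of the cultures, and p-values cover the spread between these samples. Members, lists and rules were chosen with earlier results of these data known. Named are all members and their probes, from each list up to 4 genes per direction past the threshold or else the 2 widest differences (in both fits), and the 3 nearest profiles for Mymk and Mymx. Alternatives were normexp (offset 50), quantile normalization, median centring, series values, no filter, a filter on all 8 arrays, the mean of probes, each probe alone, array row or array column as a block (the column as random), trended and robust eBayes, and leaving out each array or pair. Files were read with Python 3.11.15 and pandas 2.3.3, and exact tests went through every regrouping of the values. The interval quantiles used scipy 1.17.1, and matplotlib 3.10.9 made the plots.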

Additional observations from a re-analysis of the deposited data

Results flagged for a closer look

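In 57 groups of 4 values tested, 2 held a sample far from the others, where chance flags about 1 in 20 groups. For Cdh15, control sample 3 read 5.30 against 6.28 to 6.34 in the other controls, and the gap was 0.947 of the group's range. Its partner with macroH2A1.1 siRNA, sample 3, was also the lowest of its group at 5.68 (5.675). For Itga7, macroH2A1.1 siRNA sample 1 read 9.16 against 8.70 to 8.73 in the other samples of that group, a gap of 0.926 of the range. Control sample 1 was the highest control for Itga7 at 8.83.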

How the results depend on the processing

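Over 300 alternatives for the members, 271 kept direction and side of the threshold, 7 newly passed and 22 changed sign, and those 22 were of Adam12, Ncam1 and Jam3. Without pairing 0 members and 0 list genes passed in any setting. All genes passing numbered 3 unpaired, 1 with median centring, 5 with the filter on all 8 arrays, 10 with array row and 7 with array column as a block, and 0 to 11 without 1 array. With the replicate block 1100 genes passed, 1900 with normexp, 1053 with quantile normalization, 789 with median centring, 1602 with series values, 1358 with the filter on all 8 arrays, 928 with the mean of probes, 0 with no filter, and 0 to 587 (0, 115, 0 and 587) without pairs 1 to 4. Members passing under the block numbered 1, 2 with normexp (Cav3 and Myof), 1 each with quantile normalization, series values, all 8 arrays and the mean of probes, and 0 with median centring, no filter or a pair left out. Adhesion genes passing under the block numbered 7, and 8, 6, 3, 8, 8 and 5 with normexp, quantile, median centring, series values, all 8 arrays and the mean of probes. They numbered 0 with no filter and 0 to 3 without a pair. Caveola genes numbered 3, and 4, 2, 1, 3, 4 and 1 in the same order, and 0 with no filter or without a pair. Signalling and repair genes numbered 1 each, and 1 in that order save 0 with median centring, and 0 with no filter or without a pair. Adam12 turned to -0.037 (-0.0375) with series values and -0.057 with the mean of probes in both fits, and ran from -0.11 to 0.12 without an array and -0.14 to 0.22 without a pair (-0.0054 without pair 3). Jam3 under the block was -0.0288, -0.059 with normexp, -0.0315 with quantile, -0.0281 with median centring, -0.0288 with no filter, all 8 arrays and the mean of probes, 0.335 with series values in both fits, -0.22 to 0.07 without a pair and -0.086 to 0.30 without an array. Ncam1 ran from -0.18 to 0.028 and S100a11 from -0.01 (-0.00835) to 0.43 without an array. With the mean of probes Ncam1 read -0.228 in both fits (limma adjusted p = 0.730 unpaired and 0.157 paired). The Ncam1 probe contrast, chosen after seeing the data, was -0.38 with normexp, -0.40 with series values and -0.35 to -0.41 without a pair. The causes were not tested. Signals near background, such as Myof and Adam12, have the least certain size.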
